A study of Oryctolagus cuniculus with 6 samples.

Results

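The metalloproteinases, ADAMTS enzymes and their inhibitors were examined in retinas of rabbits with proliferative vitreoretinopathy (PVR) and in normal rabbit retinas. They were taken as the genes whose symbol in the deposited tables is that of a matrix metalloproteinase (MMP), a tissue inhibitor of metalloproteinases (TIMP), an ADAMTS or ADAMTS-like (ADAMTSL) gene, or RECK. This gave 48 of the 28788 genes: 4 TIMPs, RECK, 21 MMPs, 18 ADAMTS genes and 4 ADAMTSL genes. Polyadenylated RNA was sequenced from 3 normal and 3 PVR samples of adult rabbit retina. In the PVR model the sclera was punctured, some vitreous was removed and platelet-rich plasma was injected into the vitreous cavity, and the normal retinas were labelled only as normal. Strain, age beyond adult, the time after injection, and whether each sample came from a separate animal are not given in the sources used here, so p-values measure only the spread between these samples.

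PVR is a scarring process in which cells spread over the retina, lay down extracellular matrix and contract it. MMPs are zinc enzymes that cut collagens, basement membrane and many cell-surface proteins, and ADAMTS enzymes cut mainly proteoglycans such as aggrecan and versican or trim procollagens. TIMPs bind the active site of these enzymes, and RECK is a membrane-anchored inhibitor. Transcript levels do not show how much enzyme is active, because the enzymes are made as inactive precursors.

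Between 31904593 and 43035080 reads were counted per sample. The rod genes SAG and GNAT1 were abundant in all 6 samples, with at least 94078 and 64958 counts. Normal replicate 2 stood apart in lens genes, with a summed FPKM (a level corrected for gene length and sequencing depth) of 35100 over 8 lens genes, against 16.2 and 13.2 in normal replicates 1 and 3 and 329, 283 and 331 in PVR. Differences were tested on the counts with edgeR over 18697 genes left by its low-count filter, and 38 of the 48 were among them. MMP12 and MMP9 passed the filter through the PVR samples alone. In bulk retina, fewer cells of a type and less RNA per cell cannot be told apart.

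At an adjusted p under 0.05, 4 genes rose in PVR, all of them enzymes: MMP12, ADAMTS12, ADAMTS1 and ADAMTS5. These were 4 of the 38 tested (10.5%), where 1.09% of all genes tested rose. Without the genes that passed the filter through a single group, MMP12 and MMP9 among them, the counts were 3 of 36 (8.33%) and 0.967% of all genes. Their log2 fold changes were all beyond 1, as for 0.69% of all genes tested. None of the 38 fell at that threshold by edgeR, where 0.615% of all genes did. At an unadjusted p under 0.05, 7 of the 38 (18.4%) were higher and 5 (13.2%) lower, against 11.3% and 9.94% of all genes. DESeq2 called 7 of these genes higher and 2 lower, where it called 5.43% and 3.33% of all genes it tested. The additional calls were TIMP1, ADAMTS3 and MMP1 as higher, and MMP14 and ADAMTS9 as lower. The edgeR calls depended on single samples: 0 genes rose without PVR replicate 1 or without normal replicate 2. The number was 1 without normal replicate 1, 2 without PVR replicate 2, 4 without normal replicate 3 and 6 without PVR replicate 3. Calls over all genes, in both directions, were 22, 76, 98, 113, 557 and 650 in the same fits and order, against 318 with every sample.

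**Figure D1:**
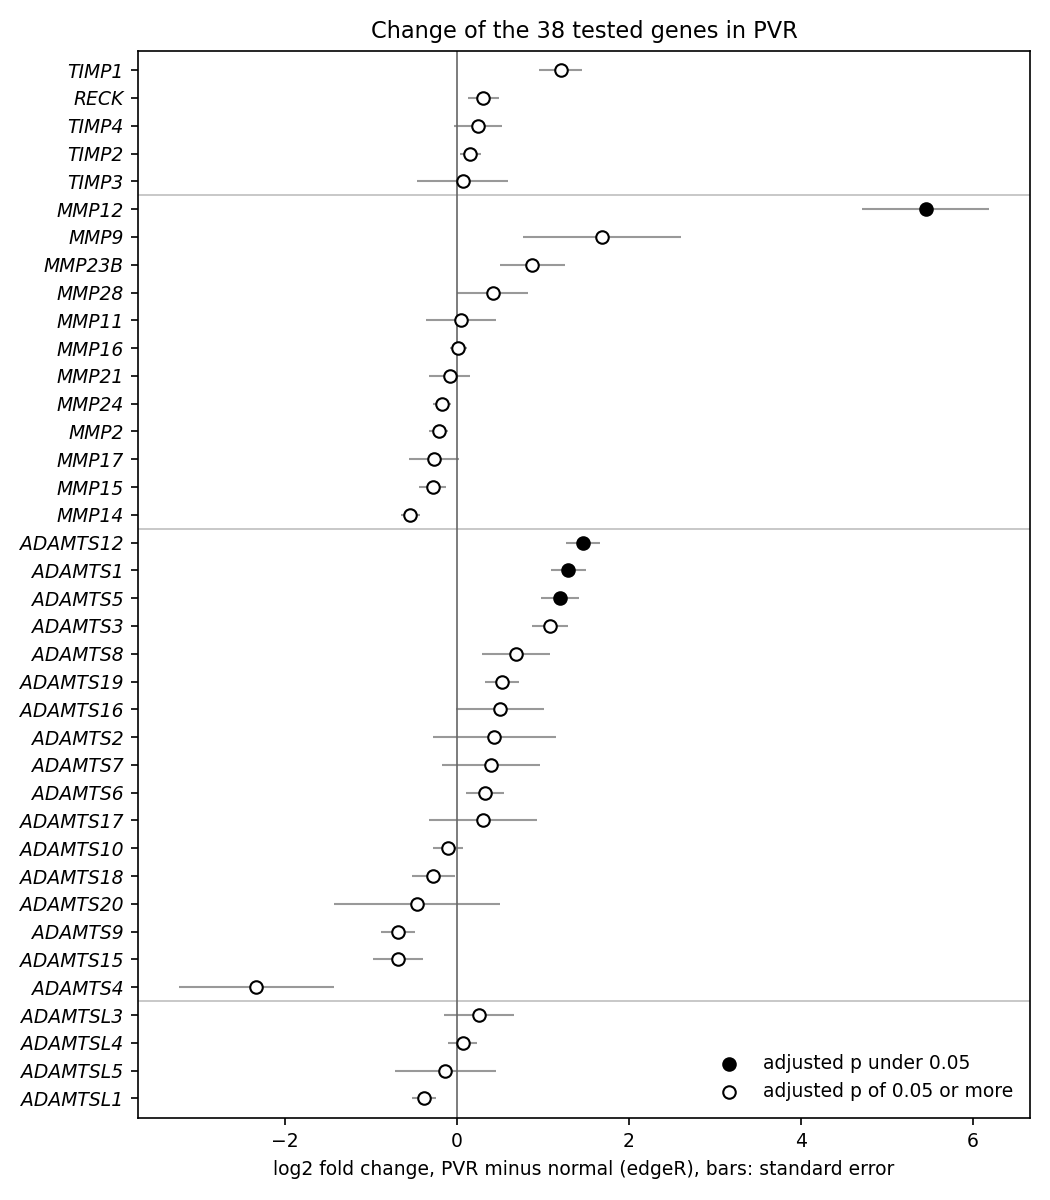
Log2 fold change of each of the 38 tested genes (horizontal axis, PVR minus normal, from edgeR), with bars of 1 standard error. Filled points are the 4 genes with an adjusted p under 0.05, which all lie on the PVR side, and MMP12 lies furthest out at 5.45.

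Of the inhibitors, TIMP1 stood highest above normal. TIMP1 is a secreted inhibitor that many cells release in inflammation and wound repair. Its FPKM was 7.37, 7.04 and 8.31 in normal retina against 18.7, 24.6 and 12.3 in PVR retina. The groups did not overlap, and PVR replicate 2 was the highest. By edgeR the log2 difference was 1.21 (standard error 0.25, adjusted p = 0.0634), so TIMP1 did not pass the test. DESeq2 gave an adjusted p of 0.000142, and over all 15 other settings it ranged from that value to 0.268.

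TIMP2, which inhibits MMP2 and also helps MMP14 to activate it, was the most abundant inhibitor. Its FPKM was 31.5, 40.2 and 39.6 in normal retina against 43.1, 40.0 and 47.1 in PVR, and the groups overlapped. In edgeR the difference was 0.16 on the log2 scale (standard error 0.12, adjusted p = 0.476).

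TIMP3 is held in the extracellular matrix, inhibits ADAMTS enzymes as well as MMPs, and is known in the eye from Bruch's membrane, the layer under the pigment epithelium. Its FPKM was 19.3, 29.6 and 24.1 in normal retina against 27.0, 8.11 and 44.8 in PVR. PVR replicates 2 and 3 thus lay outside the range of the normal samples on opposite sides. The mean FPKM was 24.4 ± 5.17 (SD, n = 3) in normal and 26.6 ± 18.3 (SD, n = 3) in PVR. The log2 difference, 0.07 with a standard error of 0.53 (adjusted p = 0.956, edgeR), had no stable sign, being -0.55 without PVR replicate 3 and 0.50 without PVR replicate 2.

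TIMP4 was the least abundant of the TIMPs, with an FPKM of 2.28 to 3.45 in normal retina against 3.25 to 3.94 in PVR. RECK had 3.38, 3.40 and 2.42 in normal retina against 4.12, 4.58 and 3.32 in PVR. Both overlapped between the groups, and their adjusted p were 0.632 and 0.366 (edgeR). In the order of mean FPKM in PVR, TIMP2 and TIMP3 overlapped, as did TIMP3 and TIMP1, and TIMP4 was below TIMP1 in every sample.

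As RefSeq annotates mOryCun1.1, TIMP1, TIMP3 and TIMP4 lie inside the synapsin genes SYN1, SYN3 and SYN2. The strand setting of the counting is not given in the sources used here, so reads of a synapsin gene and of the TIMP inside it might not be told apart. SYN1, SYN3 and SYN2 differed by -0.05, -0.09 and -0.16 on the log2 scale (adjusted p = 0.849, 0.702 and 0.428, edgeR). On normalised CPM, SYN1 overlapped between the groups, while SYN2 and SYN3 were lower in every PVR sample. The part of synapsin reads in the counts of these TIMPs was not tested. In the same annotation 19 of the 48 genes, these TIMPs included, overlap another annotated gene, among them ADAMTS12, ADAMTS3, ADAMTS9, ADAMTS19, MMP24 and ADAMTSL1.

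**Figure D2:**
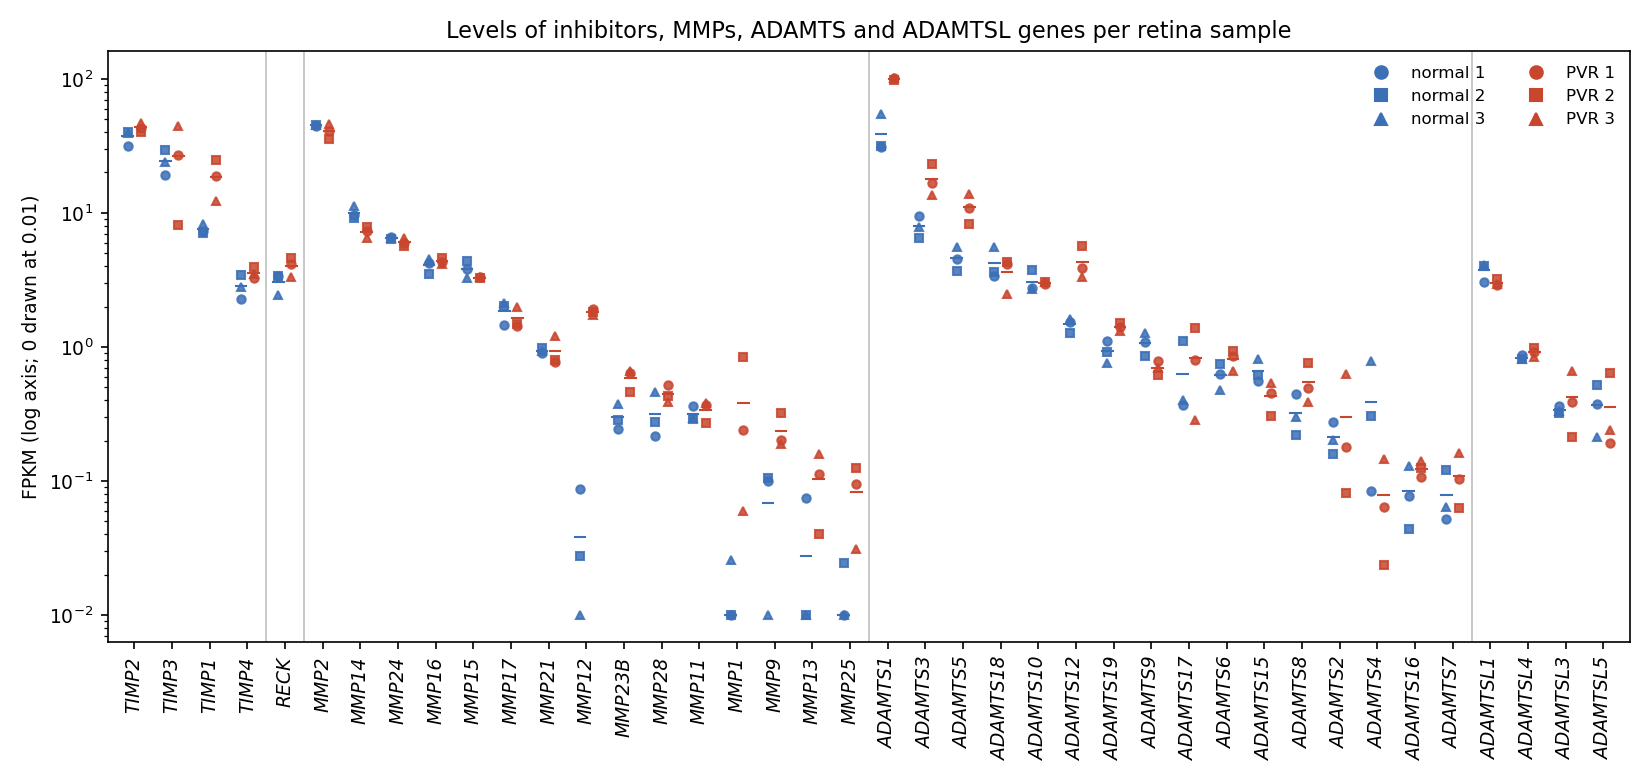
FPKM of each gene that reached 0.1 FPKM in any sample (vertical log axis, zeros drawn at 0.01), with 3 normal samples in blue, 3 PVR samples in red and the group means as lines. ADAMTS1 is the highest gene in PVR, at 98.1 to 102 FPKM, and MMP12 lies at 1.72 to 1.91 FPKM in PVR and at most 0.0868 in normal.

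MMP12, the metalloelastase made mainly by macrophages, was nearly absent from normal retina. It had 6, 2 and 0 counts in normal retina against 108, 105 and 131 in PVR. The 3 PVR samples were close together and all far above the normal samples. Over the summed reads this was a ratio of 48.0 (95% exact counting interval 24.1 to 112). By edgeR the log2 difference was 5.45 (standard error 0.74, adjusted p = 0.0238). Because MMP12 had passed the filter through the PVR samples alone, the fit without a filter was also made, and its adjusted p was 0.0123 (edgeR). MMP12 stayed under an adjusted p of 0.05 in 10 of 14 other settings and was up to 0.156, without PVR replicate 1. The log2 change was 6.78 without normal replicate 1, 5.29 without normal replicate 2 and 4.88 without normal replicate 3. On the log2(FPKM + 1) scale, which understates changes of low transcripts, the change was 1.44, and the level in PVR was 1.82 ± 0.0966 FPKM (SD, n = 3).

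Of the macrophage and microglial markers, all 8 genes found in the files had a positive log2 fold change (median 0.91, against -0.01 over all genes tested). Of the 8, 6 were higher in PVR without overlap between the groups, against 13.4% of all genes tested. None of the 8 passed the test. Their summed FPKM was 12.1 to 31.6 in normal retina against 35.6 to 53.1 in PVR. ITGAM, an integrin of myeloid cells, had 106, 135 and 65 counts in normal retina against 245, 375 and 247 in PVR (log2 fold change 1.62, adjusted p = 0.0735, edgeR). The fold of MMP12 was larger than that of any gene on this list, and the part of these cells in its rise was not tested.

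MMP12 belongs to a run of MMP genes that lie side by side in the rabbit genome, in the order MMP7, MMP20, MMP27, MMP8, MMP10, MMP1, MMP3, MMP12 and MMP13 with 1 further gene among them. The row that RefSeq's gene identifier pairs with MMP10, which the files do not give by symbol, had 0 counts in every sample. MMP1, the interstitial collagenase, had 0, 0 and 2 counts in normal retina against 15, 53 and 5 in PVR. It was higher in every PVR sample, with PVR replicate 2 far above the others. The ratio over the summed reads was 40.8, with a wide counting interval of 10.9 to 343. MMP1 was below the edgeR filter. DESeq2 gave it a log2 fold change of 5.40 (adjusted p = 0.00896), and edgeR without a filter gave 5.13 (adjusted p = 0.101).

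MMP13, another collagenase, had 9, 1 and 0 counts in normal retina against 11, 4 and 21 in PVR, so the groups overlapped. MMP8 and MMP20 had no count in any sample, which allows up to 3 counts in each, and MMP3, MMP7 and MMP27 had at most 1 count in any sample. Within this run of genes, MMP12 and MMP1 were therefore the ones with over 50 counts in any sample.

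The gelatinases MMP2 and MMP9, which cut denatured collagen and basement membrane collagen, differed widely in level. MMP2 was the most abundant MMP, with an FPKM of 44.2, 45.4 and 45 in normal retina against 40.8, 35.6 and 45.6 in PVR. It made up 60.3% to 62.4% of the summed FPKM of all MMPs in normal samples and 56.0% to 62.7% in PVR. In edgeR the difference was -0.21 on the log2 scale (standard error 0.11, adjusted p = 0.299). MMP9, a gelatinase that neutrophils store, had 9, 10 and 0 counts in normal retina against 15, 24 and 19 in PVR. The PVR samples were all higher, but at these counts the log2 fold change, 1.69, had a standard error of 0.92 (adjusted p = 0.327, edgeR).

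Among neutrophil genes, MPO had no count in any sample and CSF3R at most 6. S100A8 and S100A9, calcium-binding proteins of neutrophils and other myeloid cells, rose by log2 fold changes of 4.27 and 2.96 (adjusted p = 0.0486 and 0.0416, edgeR). S100A8 had 24, 5 and 2 counts in normal retina against 208, 209 and 136 in PVR. CXCR2, a neutrophil chemokine receptor, had 11, 27 and 11 counts in normal retina against 25, 23 and 16 in PVR, and overlapped (adjusted p = 0.619, edgeR). Summed FPKM over the 5 genes found in the files was 0.747 to 2.72 in normal retina against 11.5 to 26.7 in PVR, and nearly all of it in PVR was S100A8 and S100A9, with means of 9.96 and 10.3.

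Of the 6 membrane-anchored MMPs tested, 4 had a negative log2 fold change, the median was -0.21, and none passed the test. MMP14, which activates MMP2 at the cell surface, had an FPKM of 9.61, 9.14 and 11.2 in normal retina against 7.32, 7.84 and 6.44 in PVR. Every PVR sample was below every normal sample. By edgeR the log2 difference was -0.54 (standard error 0.11, adjusted p = 0.064), and DESeq2 gave an adjusted p of 0.00306. MMP24, a neuronal membrane MMP, was lower in each PVR sample on normalised CPM (27.9 to 29.0 in normal samples, 23.5 to 27.5 in PVR), at a log2 fold change of -0.17 ± 0.10 (SE, adjusted p = 0.377, edgeR).

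MMP15, MMP16 and MMP17 had log2 fold changes of -0.28, 0.02 and -0.26 with overlapping groups. MMP23B, a small member with a membrane anchor at its start, went the other way, with 18, 22 and 28 counts in normal retina against 38, 28 and 53 in PVR. Its groups did not overlap on normalised CPM (log2 fold change 0.88, standard error 0.38, adjusted p = 0.239, edgeR). MMP25, a leukocyte enzyme, had 0, 3 and 0 counts in normal retina against 9, 12 and 4 in PVR, and was below the filter. The remaining tested MMPs, MMP11, MMP21 and MMP28, had log2 fold changes of 0.05, -0.08 and 0.42. MMP26 had at most 4 counts in any sample, and the row that RefSeq pairs with MMP19 had at most 2.

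The ADAMTS proteoglycanases were divided in direction. ADAMTS1, which cuts aggrecan and versican, was the most abundant ADAMTS gene. Its FPKM was 31.0, 31.7 and 54.2 in normal retina against 102, 98.1 and 101 in PVR. The PVR samples lay close together, while normal replicate 3 was well above the other normal samples. This was a rise from 39.0 ± 13.2 to 100 ± 1.92 FPKM (SD, n = 3 each). In edgeR the difference was 1.30 on the log2 scale (standard error 0.20, adjusted p = 0.0342). The change was 1.60 without normal replicate 3, and the adjusted p reached 0.189 without PVR replicate 1.

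ADAMTS5, the other main aggrecanase, lies next to ADAMTS1 in the genome. It had an FPKM of 4.49, 3.66 and 5.58 in normal retina against 10.9, 8.24 and 13.9 in PVR. The groups did not overlap, with PVR replicate 3 the highest. ADAMTS5 rose by a log2 fold change of 1.20 ± 0.22 (SE, adjusted p = 0.0466, edgeR), which was close to the threshold and passed in 9 of 15 other settings.

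The aggrecanase ADAMTS4 pointed the other way at a low level. It had 13, 49 and 124 counts in normal retina against 8, 3 and 25 in PVR. Normal replicate 1 lay within the range of the PVR samples, so the groups overlapped. Its log2 fold change, -2.33, had a standard error of 0.90 (adjusted p = 0.202, edgeR), and it was -1.36 without normal replicate 3 and -3.21 without PVR replicate 3.

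ADAMTS9, which cuts versican and aggrecan, had an FPKM of 1.08, 0.858 and 1.26 in normal retina against 0.785, 0.612 and 0.698 in PVR. Every PVR sample was lower (log2 fold change -0.68, standard error 0.20, adjusted p = 0.128, edgeR). ADAMTS15 had 131, 151 and 194 counts in normal retina against 86, 59 and 138 in PVR, again without overlap on normalised CPM, at a log2 fold change of -0.68 ± 0.29 (SE, adjusted p = 0.235, edgeR). Its neighbour in the genome, ADAMTS8, had a positive log2 fold change of 0.69 with overlapping groups. ADAMTS20 had at most 20 counts in any sample.

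ADAMTS12, an enzyme that degrades cartilage oligomeric matrix protein, rose furthest among the ADAMTS genes. Its FPKM was 1.53, 1.27 and 1.61 in normal retina against 3.88, 5.68 and 3.31 in PVR. Every PVR sample was at least 3.31, above the normal maximum of 1.61. By edgeR the log2 difference was 1.47 (standard error 0.20, adjusted p = 0.0249). The adjusted p was under 0.05 in 10 of 15 other settings and reached 0.127 without PVR replicate 1.

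Of the procollagen N-proteinases, which remove the amino-terminal propeptide of fibrillar procollagens, ADAMTS3 was by far the most abundant. It had 2161, 1547 and 1841 counts in normal retina against 3115, 4400 and 3380 in PVR. Each PVR sample was higher, with a log2 fold change of 1.09 ± 0.21 (SE, adjusted p = 0.0527, edgeR). It passed in 3 of 15 other settings: DESeq2, no filter on low counts, and without PVR replicate 3. ADAMTS2 had 41, 25 and 31 counts in normal retina against 22, 10 and 104 in PVR, and ADAMTS14 had at most 4 in any sample.

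Among the other ADAMTS genes, ADAMTS19 had 240, 209 and 169 counts in normal retina against 250, 272 and 313 in PVR, without overlap on normalised CPM (log2 fold change 0.53, standard error 0.20, adjusted p = 0.196, edgeR). ADAMTS6, ADAMTS7, ADAMTS10, ADAMTS16, ADAMTS17 and ADAMTS18 overlapped between the groups, with log2 fold changes from -0.27 to 0.50. Of the ADAMTSL genes, which carry ADAMTS-type repeats but no protease domain, ADAMTSL1 was the most abundant and the lowest in PVR relative to normal. It had 26.2 to 35.8 normalised CPM in normal retina against 23.8 to 25.9 in PVR (log2 fold change -0.38, standard error 0.14, adjusted p = 0.183, edgeR). ADAMTSL3, ADAMTSL4 and ADAMTSL5 had log2 fold changes of 0.26, 0.07 and -0.13.

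In all, 9 of the 38 tested genes (23.7%) had all 3 PVR samples above all 3 normal samples, against 13.4% of all genes tested. MMP12 and MMP9 entered through the PVR samples alone, a way in by which 98.4% of all such genes were higher without overlap. With genes that entered through a single group set aside, 7 of 36 (19.4%) remained, against 12.9% of all genes. Another 5 (13.2%) were lower in every PVR sample, against 14.6% of all genes tested. Those higher were MMP9, MMP12, MMP23B, TIMP1, ADAMTS1, ADAMTS3, ADAMTS5, ADAMTS12 and ADAMTS19. The 5 lower were MMP14, MMP24, ADAMTS9, ADAMTS15 and ADAMTSL1.

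Inhibitors and enzymes were then set side by side. The 5 inhibitors all had positive log2 fold changes (median 0.25), and none passed the test. Of the 29 enzymes tested, 17 had a positive and 12 a negative log2 fold change (median 0.31), and 4 rose. By family, the median was -0.03 over 12 MMPs and 0.40 over 17 ADAMTS genes, against -0.01 over all genes tested.

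The summed FPKM of the 4 TIMPs was 60.5, 80.3 and 74.8 in normal retina against 92, 76.6 and 108 in PVR, with PVR replicate 2 inside the normal range. The 21 MMPs summed to 72.0, 72.7 and 74.7 in normal retina against 67.9, 63.7 and 72.8 in PVR, which put PVR replicate 3 within the normal range. For the 18 ADAMTS genes the sum was 57.4, 55.7 and 82.7 in normal retina against 146, 149 and 142 in PVR, a ratio of the means of 2.23. Among these family sums, the ADAMTS sum was thus the one with no overlap between the groups. ADAMTS1 alone supplied 54.1% to 65.5% of it in normal retina against 66.1% to 71.1% in PVR, so this sum mostly restates that gene. Within the MMPs, the membrane-anchored genes alone summed to 26.0, 25.6 and 27.9 in normal retina against 23.0, 23.5 and 23.0 in PVR, also without overlap.

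The TIMP sum divided by the MMP sum of the same sample was 0.841, 1.10 and 1.0 in normal retina against 1.35, 1.20 and 1.48 in PVR. TIMP over ADAMTS was 1.05, 1.44 and 0.904 in normal retina against 0.631, 0.516 and 0.758 in PVR. The ratio of inhibitor to enzyme transcripts was therefore higher in PVR against the MMPs and lower against the ADAMTS genes, with no overlap in either. ADAMTS1 made up most of the ADAMTS sum, and TIMP1 was the only TIMP whose groups did not overlap. Neither ratio was recomputed without these genes, so the separations are not shown to be traits of whole families. Given as means, TIMP over MMP was 0.982 ± 0.133 in normal and 1.35 ± 0.138 in PVR (SD, n = 3 each), and TIMP over ADAMTS was 1.13 ± 0.277 and 0.635 ± 0.121. These ratios are descriptions without a test, since they are scores over genes chosen with results known.

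MMP14 and TIMP2 together act on MMP2, since a TIMP2 molecule bound to MMP14 captures the MMP2 precursor while a free MMP14 cuts it. The FPKM of TIMP2 over that of MMP14 was 3.28, 4.40 and 3.55 in normal retina against 5.89, 5.11 and 7.32 in PVR. TIMP2 over MMP2 was 0.713, 0.884 and 0.880 in normal retina against 1.06, 1.12 and 1.03 in PVR. Both TIMP2 ratios were higher in all 3 PVR samples than in any normal one. MMP14 over MMP2 overlapped between the groups, at 0.218, 0.201 and 0.248 in normal retina against 0.179, 0.22 and 0.141 in PVR. None of these ratios was tested.

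**Figure D3:**
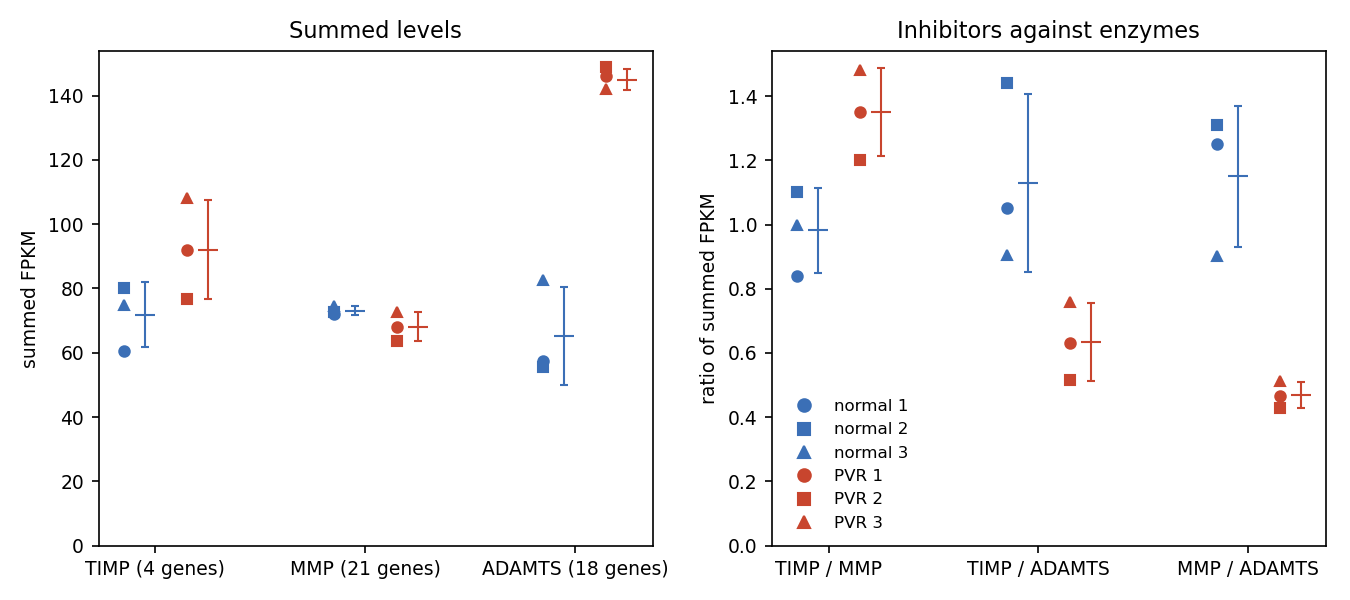
Left, summed FPKM of the TIMP, MMP and ADAMTS genes in each sample, and right, ratios of these sums within a sample (both axes start at 0), with the mean and SD of 3 samples beside the points. The ADAMTS sums separate at 55.7 to 82.7 in normal and 142 to 149 in PVR, and TIMP over MMP is higher while TIMP over ADAMTS is lower in PVR.

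The genes did not all follow the same order among the PVR samples. TIMP3, ADAMTS2 and ADAMTSL3 were highest in PVR replicate 3 and lowest in PVR replicate 2. Some matrix genes had the same order, and others did not. COL1A1, a chain of collagen I, had 469, 224 and 532 counts in normal retina against 1817, 190 and 4485 in PVR, and COL3A1 and BGN also ranked PVR replicate 3 above 1 above 2. LUM, a small proteoglycan that binds collagen fibrils, had the opposite order, with 63.7, 77.7 and 56.8 normalised CPM in PVR replicates 1, 2 and 3. ADAMTS2, which trims these collagens, ranged from 10 to 104 counts over the same 3 samples. TIMP1, ADAMTS3 and ADAMTS12 had the opposite order, highest in PVR replicate 2 and lowest in PVR replicate 3. These sets were chosen after their values were seen. The 8 pericyte and fibroblast genes summed to 34.0 to 42.6 FPKM in normal and 52.2 to 70.0 in PVR, highest in PVR replicate 3 and lowest of PVR in replicate 2. LUM was the largest part of this sum, with a mean FPKM of 24.4 in normal retina and 36.5 in PVR. COL1A1 had means of 2.12 and 11.5. By log2 fold change, 4 of the 8 were positive and 4 negative (median -0.02), and 1 of them fell, RGS5. Of 6 tested pigment epithelium genes 2 fell, 3 were lower in every PVR sample and 1, BEST1, was higher in every PVR sample. That list summed to 92.6 to 204 FPKM in normal and 48.8 to 57.7 in PVR. TTR and RPE65 supplied most of this sum, with means of 81.2 and 47.8 in normal retina, so it mostly restates those genes. The part of these cells in the values of TIMP3 was not tested. Of the 7 Mueller glia genes 1 rose and 2 fell, and of the 9 rod and cone genes and 8 lens genes none passed the test. Over all genes tested, 1.09% rose and 0.615% fell.

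ADAMTS4 followed another order, with the most counts in normal replicate 3 and few in PVR. VWF, an endothelial blood clotting protein that fell in PVR, had 228, 620 and 950 counts in normal retina against 14, 13 and 25 in PVR. MBP, a protein of myelin, had 998, 4377 and 9682 counts in normal retina against 251, 353 and 419 in PVR. Over the whole oligodendrocyte list, 7 of 7 genes were lower in every PVR sample, against 14.6% of all genes tested, and 3 fell, against 0.615%. The summed FPKM of this list was 87.5 to 437 in normal retina against 51.9 to 57.1 in PVR. Of the 8 endothelial genes, 4 were lower in every PVR sample, 1 was higher and 2 fell. By log2 fold change, 5 of the 8 were negative and 3 positive. Their summed FPKM was 93.0 to 96.7 in normal and 107 to 111 in PVR. KDR and FLT1 supplied most of this sum, with means of 63.5 and 26.1 in normal retina, so it mostly restates those genes. CDH5, which fell, had 24, 41 and 103 counts in normal retina against 0, 0 and 1 in PVR. CLDN5 had 43, 139 and 296 counts in normal retina against 11, 3 and 24 in PVR. The part of these cells in the values of ADAMTS4 was not tested.

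**Figure D4:**
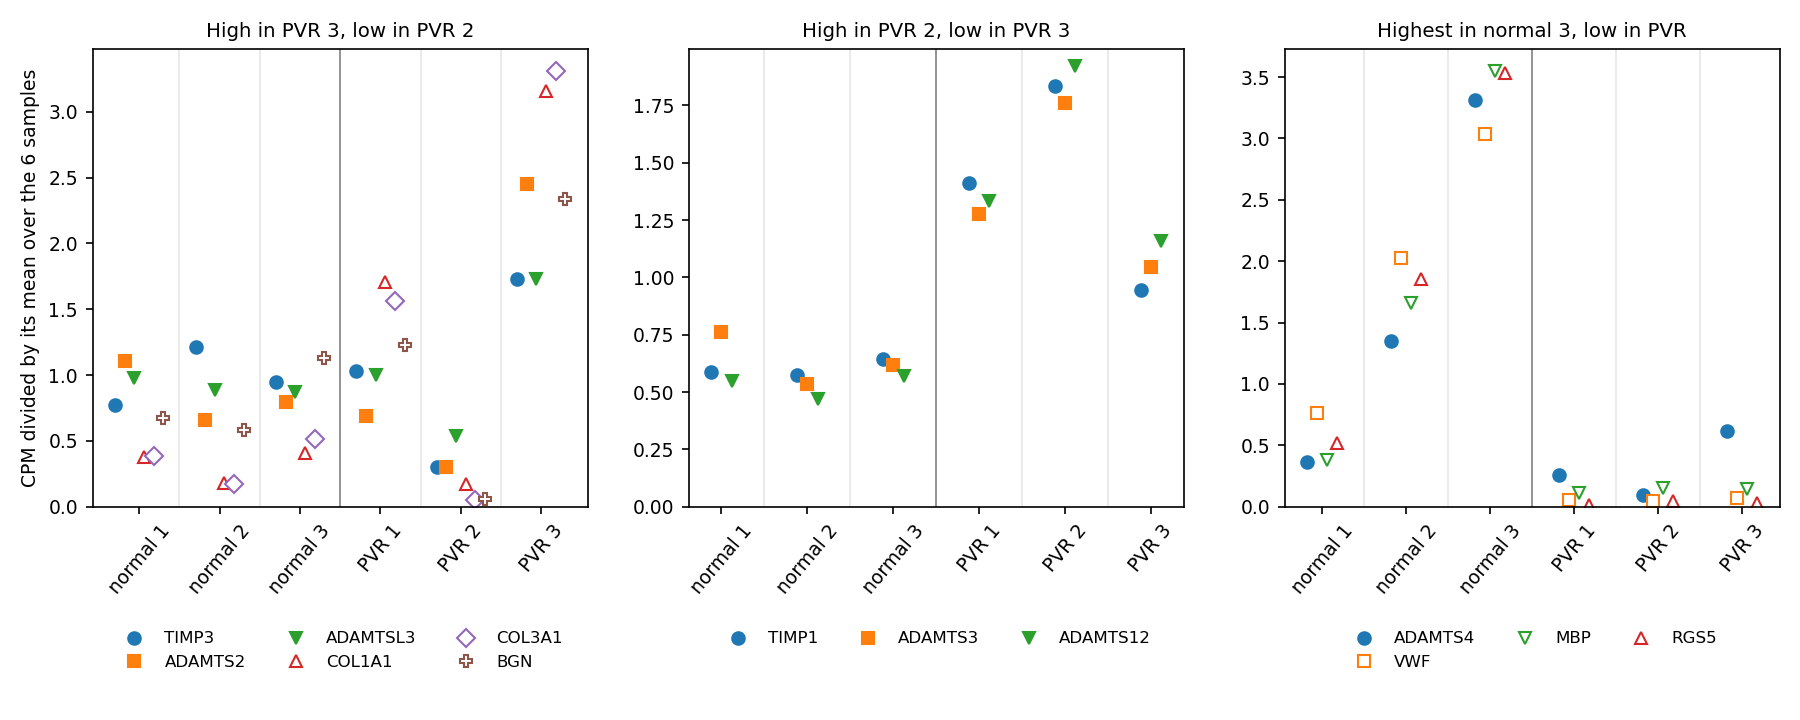
CPM of each gene in each sample divided by its mean over the 6 samples (vertical axes start at 0), with filled points for the metalloproteinase, ADAMTS and TIMP genes and open points for genes outside these families. TIMP3 and ADAMTS2 share the extremes of COL1A1 in PVR replicates 2 and 3, TIMP1 has the reverse order, and ADAMTS4 peaks with VWF, MBP and RGS5 in normal replicate 3.

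The rest of the pathway was taken from lists of activators, other inhibitors, substrates, related enzymes and inducers. For comparison with the counts below, 1.09% of all genes tested rose and 0.615% fell in edgeR. At an unadjusted p under 0.05, 11.3% of all genes were higher and 9.94% lower. None of the 12 tested activators and convertases passed the test at an adjusted p under 0.05 in edgeR (1 at an unadjusted p under 0.05, median log2 fold change -0.07). PLAU and PLAT, the plasminogen activators that start MMP activation cascades, had log2 fold changes of 0.19 and -0.19, and the receptor PLAUR -0.03. All 3 overlapped between the groups.

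None of the 11 other inhibitors and clearance receptors passed either, with 3 at an unadjusted p under 0.05 and a median of -0.06. Of the 24 tested substrates 1 fell, VWF, at a log2 fold change of -5.02 ± 0.55 (SE, adjusted p = 0.0119, edgeR), and 10 had an unadjusted p under 0.05. The enzyme that cuts VWF, ADAMTS13, was not analysed here. The aggrecan gene ACAN, a substrate of ADAMTS1, ADAMTS4 and ADAMTS5, had 78, 127 and 12 counts in normal retina against 241, 289 and 399 in PVR, without overlap but at an adjusted p of 0.136 (edgeR). Neurocan and brevican, proteoglycans of nervous tissue, lay the other way. NCAN had 672, 636 and 827 counts in normal retina against 343, 325 and 557 in PVR, with an adjusted p of 0.0773 (edgeR). BCAN had 187, 244 and 309 counts in normal retina against 124, 66 and 197 in PVR, with an adjusted p of 0.204 (edgeR).

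Among 16 related metalloproteinases of the ADAM, tolloid and meprin families none passed the test in edgeR, and 4 had an unadjusted p under 0.05. ADAM17, the sheddase of TNF that TIMP3 inhibits, differed by 0.09 ± 0.10 (SE) on the log2 scale. Of the 18 tested inducers and transcription factors, 3 rose and none fell. The 3 were CEBPD, STAT3 and FOS, transcription factors that act on the promoters of inflammatory and MMP genes, at log2 fold changes of 2.99, 1.21 and 1.51 (adjusted p = 0.000652, 0.00733 and 0.0359, edgeR).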

How the data were processed

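RNA-seq of 3 normal and 3 PVR rabbit retina samples was analysed, grouped by sample title. Raw counts per gene were deposited, which the authors made with htseq-count after HISAT2 alignment to the OryCun2.0 build, and the submitters' processing notes also name fastp. FPKM values were deposited by the authors as well, and dividing the counts by them gave 1 length per gene (largest relative difference 4.24e-09). Annotation release and strand setting are not given in the sources used here. The depth was 31904593 to 43035080 counts per sample, and intervals cover counting error only.

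Counts were tested in R 4.3.3 with edgeR 4.0.16: default low-count filter (18697 of 28788 genes kept), TMM factors, a quasi-likelihood fit with condition as its term, and Benjamini-Hochberg adjustment over all genes tested. A gene is said to rise or fall at an adjusted p under 0.05. Normalised CPM uses the TMM-scaled library size. Alternatives were DESeq2 1.42.0, RLE and upper-quartile factors, no filter, at least 10 counts in every sample, limma 3.58.1 (voom, and on log2 FPKM with 1 or 0.1 added), a replicate block and leaving out single samples. On simulated counts for 18697 genes, edgeR recovered 149 of 200 changed genes with 12 false calls among 161. The simulation used the dispersions that edgeR fitted to these data. Its changes were larger than those of ADAMTS1, ADAMTS3, ADAMTS5, ADAMTS12 and TIMP1, so the recovery does not carry over to these genes. Python 3.11.15, pandas 2.3.3, SciPy 1.17.1 (exact binomial intervals) and matplotlib 3.10.9 were used.

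The members and lists were chosen with earlier results of these data known. Genes described in full are the TIMPs, RECK, MMP2, MMP9, MMP14, ADAMTS1, ADAMTS4, ADAMTS5, ADAMTS9 and ADAMTS13 (not analysed here), every member with an adjusted p under 0.05, and every member without overlap in CPM and with a log2 fold change beyond 0.5. From the other lists, up to 3 genes with the smallest adjusted p under 0.05 and VWF, PLAU, PLAUR, PLAT, ADAM17 and defining markers are named (some genes that this rule covers are not reported here), and NCAN, BCAN, ACAN, ITGAM, COL1A1, COL3A1, BGN and MBP were added after their values were seen. All 48 symbols are in RefSeq's annotation of mOryCun1.1, which was used for names and neighbours only.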

Additional observations from a re-analysis of the deposited data

How the results depend on the processing

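For the 18 genes described in full, 234 of 267 values under other settings kept the direction and side of the threshold. The 20 that lost the threshold were all of MMP12, ADAMTS1, ADAMTS5 and ADAMTS12, whose direction held throughout, and 7 passed it newly. In place of 4 higher genes, 7 were called by DESeq2, 2 with limma on log2(FPKM + 1), 1 (ADAMTS5) with the replicate block, and 0 to 6 with a sample left out. Those fits also changed the calls over all genes, from 318 to 1755 with DESeq2, to 92 with the block and to between 22 and 650 with a sample left out. DESeq2 called 2 genes lower in place of 0. The deviations of same-numbered samples correlated at -0.0185, 0.054 and 0.015, within the -0.0652 to 0.0669 of differently numbered samples. These values cannot show whether same-numbered samples shared an animal or a day. For TIMP3 the sign reversed, to -0.17 by voom, to -0.14 with FPKM + 1 and -0.16 with FPKM + 0.1 on the log2 scale, and to -0.17 with the replicate block. It ranged from -0.55 to 0.50 with a sample left out, and the cause was not tested. The TIMP to MMP ratio, 1.37 times higher in PVR, stayed within 1.28 to 1.49, though no setting left out TIMP1. Setting aside genes that passed the filter through a single group, chosen after seeing the data, left 3 higher genes. MMP9, MMP13 and MMP25 had at most 24 counts in any sample, so their counting intervals are wide.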
